A study of Mus musculus with 12 samples.

Results

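The 9 genes described here are the interleukin-1 (IL-1) family ligands and receptors named for this work, out of 21965 genes in the count table of mouse gingiva, the soft tissue around the teeth. They were chosen by name: the agonist ligands Il1a, Il1b, Il33 and Il18, the antagonist ligand Il1rn, the receptor chains Il1r1, Il1rap and Il1rl1, and the decoy receptor Il1r2. All 9 were found in the table, and all 9 passed the filter on low counts, which kept 15046 genes. RNA was sequenced from 12 libraries in 4 groups of 3: WT naive, WT ligated, CybbKO naive and CybbKO ligated. WT mice were C57BL/6 in the labels and C57BL/6J in the methods, and CybbKO mice were labelled Cybb-/-, a whole-animal loss of the gene for the membrane-bound catalytic subunit of the leukocyte NADPH oxidase Nox2. In the ligated groups a silk thread was tied around a maxillary molar and the gingiva around it was taken after 8 days, while naive mice had no ligature. Mice were under 12 weeks of age per the labels, and the series gives 3 mice of matched age and sex per group. The comparisons ask how the ligature changed the family in each genotype, and whether the genotypes differed in naive or in ligated tissue.

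IL-1 alpha and IL-1 beta signal through the same receptor, made of IL1R1 and the shared accessory chain IL1RAP, and switch on NF-kappa-B and its inflammatory targets in epithelium, fibroblasts and leukocytes. IL-1 beta and IL-18 are made as inactive precursors that caspase-1 in the inflammasome cuts, while IL-33 is stored in nuclei of epithelial and stromal cells and signals through ST2, the product of Il1rl1. The family is restrained by the IL-1 receptor antagonist (Il1rn), which occupies IL1R1 without signalling, and by the decoy IL1R2, which binds IL-1 and does not signal. In periodontal tissue IL-1 is known as a driver of neutrophil recruitment and of bone resorption.

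Between 27958819 and 42613423 reads were counted on genes per library, and the spread between libraries was a biological coefficient of variation of 0.240 over all genes. The targeted gene Cybb had 4.19 to 5.60 CPM in WT naive, 8.41 to 15.2 in WT ligated, 41.6 to 56.3 in CybbKO naive and 51.1 to 63.7 in CybbKO ligated libraries, where CPM is counts scaled to a common library size with edgeR's TMM factors. All 6 CybbKO libraries therefore lay above all 6 WT libraries, the opposite of a lost transcript. Counts summed over a gene cannot tell an intact from a disrupted transcript, so the genotypes below are those of the labels. The 12 oral epithelium markers summed to 80473 to 147320 CPM per library, and all 12 passed the filter on low counts. Of the libraries, WT naive replicate 3 stood apart in its summed salivary gland markers (29378 CPM, against 57.0 to 5088 in the other 11). CybbKO ligated replicate 2 had the lowest summed fibroblast markers of the 6 ligated libraries (3907 CPM, against 5039 to 10460). CybbKO ligated replicate 3 had the highest summed neutrophil markers (11817 CPM, against 1623 to 4612 in the other 5 ligated libraries). Leaving it out cut the calls over all genes in CybbKO from 1954 to 854. That drop was not particular to it, since without CybbKO ligated replicate 1 there were 837. Without single CybbKO naive libraries there were 1113 to 1178, and without CybbKO ligated replicate 2 there were 2949. Calls of the 9 genes that change when WT naive replicate 3, CybbKO ligated replicate 2 or both are left out are given beside the main value. Leaving out both was chosen after seeing the data. Without CybbKO ligated replicate 3 the 4 calls in CybbKO given below were still made.

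The promoter windows of the members are shown for the agonist pair Il1a and Il1b, which are neighbours on chromosome 2 and differed in how they moved, and for the receptor genes Il1r2, Il1r1 and Il1rl1, which lie in 1 cluster on chromosome 1. In GENCODE M21 on GRCm38 the genes span chr2:129299610-129309972 (Il1a) and chr2:129364570-129371139 (Il1b) on the minus strand, and chr1:40074079-40125231 (Il1r2), chr1:40225080-40317257 (Il1r1) and chr1:40429570-40465415 (Il1rl1) on the plus strand. Each window is the 250 bases before a transcription start, 5′ to 3′ on the strand of the gene, from RefSeq on GRCm38.p6. All 9 members matched the RefSeq table, with 14 windows in all, since several have more than 1 start. Capitals mark matches to a TATA box (TATAAA, gene strand), to the AP-1 motif TGANTCA, to the C/EBP motif TTNNGNAA or to the kappa-B motif, the last 3 on either strand. The windows are chr2:129371140-129371389 for Il1b and chr2:129309973-129310222 for Il1a, both read on the minus strand, and chr1:40085843-40086092 for Il1r2. The second of the 2 windows of Il1r1 is chr1:40266336-40266585, and those of Il1rl1 are chr1:40429320-40429569 and chr1:40439379-40439628.
Il1b: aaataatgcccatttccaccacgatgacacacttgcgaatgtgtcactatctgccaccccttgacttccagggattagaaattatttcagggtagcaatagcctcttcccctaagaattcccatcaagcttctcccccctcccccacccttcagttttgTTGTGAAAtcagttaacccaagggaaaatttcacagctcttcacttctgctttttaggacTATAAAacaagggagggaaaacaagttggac
Il1a: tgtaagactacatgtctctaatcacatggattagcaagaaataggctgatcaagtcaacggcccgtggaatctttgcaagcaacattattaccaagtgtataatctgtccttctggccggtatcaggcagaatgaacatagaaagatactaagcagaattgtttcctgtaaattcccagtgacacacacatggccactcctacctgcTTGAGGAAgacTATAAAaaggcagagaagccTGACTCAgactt
Il1r2: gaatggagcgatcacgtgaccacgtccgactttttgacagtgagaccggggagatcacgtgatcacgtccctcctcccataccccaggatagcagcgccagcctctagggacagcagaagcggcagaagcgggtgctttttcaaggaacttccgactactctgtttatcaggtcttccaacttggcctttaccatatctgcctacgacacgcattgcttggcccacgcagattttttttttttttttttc
Il1r1, second start: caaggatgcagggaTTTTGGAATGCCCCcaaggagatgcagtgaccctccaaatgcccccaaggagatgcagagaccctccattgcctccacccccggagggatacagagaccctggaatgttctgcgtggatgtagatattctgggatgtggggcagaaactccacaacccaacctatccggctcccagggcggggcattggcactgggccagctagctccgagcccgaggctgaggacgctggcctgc
Il1rl1, first start: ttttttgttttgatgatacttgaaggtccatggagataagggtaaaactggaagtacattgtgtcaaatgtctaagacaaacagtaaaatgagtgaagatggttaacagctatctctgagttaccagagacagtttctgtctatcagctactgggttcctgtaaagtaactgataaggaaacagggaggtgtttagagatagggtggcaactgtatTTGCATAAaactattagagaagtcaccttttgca
Il1rl1, second start: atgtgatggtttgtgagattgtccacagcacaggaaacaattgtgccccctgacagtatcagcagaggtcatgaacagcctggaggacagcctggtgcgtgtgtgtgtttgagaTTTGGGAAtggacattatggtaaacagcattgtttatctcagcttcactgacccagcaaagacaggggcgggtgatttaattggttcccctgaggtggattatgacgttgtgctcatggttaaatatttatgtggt
Il1b and Il1a both held a TATA box, whose first base lay 31 bases before the start of Il1b and 32 bases before that of Il1a. Over the family 4 of 14 windows held 1, against 7.59% of 32851 windows of all genes. Il1a also held an AP-1 motif 12 bases before its start, and the only other AP-1 match was in a window of Il1rn, so 2 of 14 windows held it (6.75% of all windows). Of the 14 windows, 1 held the kappa-B motif, that of the second Il1r1 start, where it overlaps a C/EBP match (7.25% of all windows), and 10 held the C/EBP motif (36.8%), although 2 of these 10, windows of Il1rn that overlap, share 1 of their matches. The shown window of Il1r2 held none of the 4. A match is a run of letters, not a measured binding site. The counts are per gene, so the starts of Il1r1, Il1rl1, Il1rn and Il33 could not be told apart, nor membrane ST2 from its soluble form or the secreted from the intracellular receptor antagonist.

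Il1b, the gene for the secreted IL-1 beta precursor, was the ligand that rose with the ligature. It had 17.5, 12.2 and 16.95 CPM in WT naive and 24.3, 42.1 and 98.7 CPM in WT ligated libraries. In the CybbKO groups it had 34.5, 9.82 and 23.95 CPM in naive and 162, 99.5 and 186 CPM in ligated libraries. Ligated libraries lay above all naive libraries of their own genotype, and the 3 CybbKO ligated libraries above all others, with the highest WT ligated library just below the lowest of them. That last separation depended on the scaling, since by library totals the lowest CybbKO ligated library (98.4 CPM) lay below the highest WT ligated one (106 CPM), and with DESeq2's size factors the groups overlapped as well. The log2 fold change from naive to ligated was 2.71 (standard error 0.53) in CybbKO, an adjusted p of 0.00729 in edgeR's quasi-likelihood test. In WT it was 1.82 (standard error 0.51, adjusted p = 0.0769), so the WT value did not pass the test although its 95% interval, 0.70 to 2.95, lay above 0. Without WT ligated replicate 3, the highest of its group, the WT value was 1.09, and with the other single libraries of the WT groups left out it was 1.68 to 2.22. DESeq2 called it in WT as well (adjusted p = 0.00425, in a range of 0.00425 to 0.287 over 15 alternatives, and not called in the 6 fits that left out a CybbKO library).

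**Figure D1:**
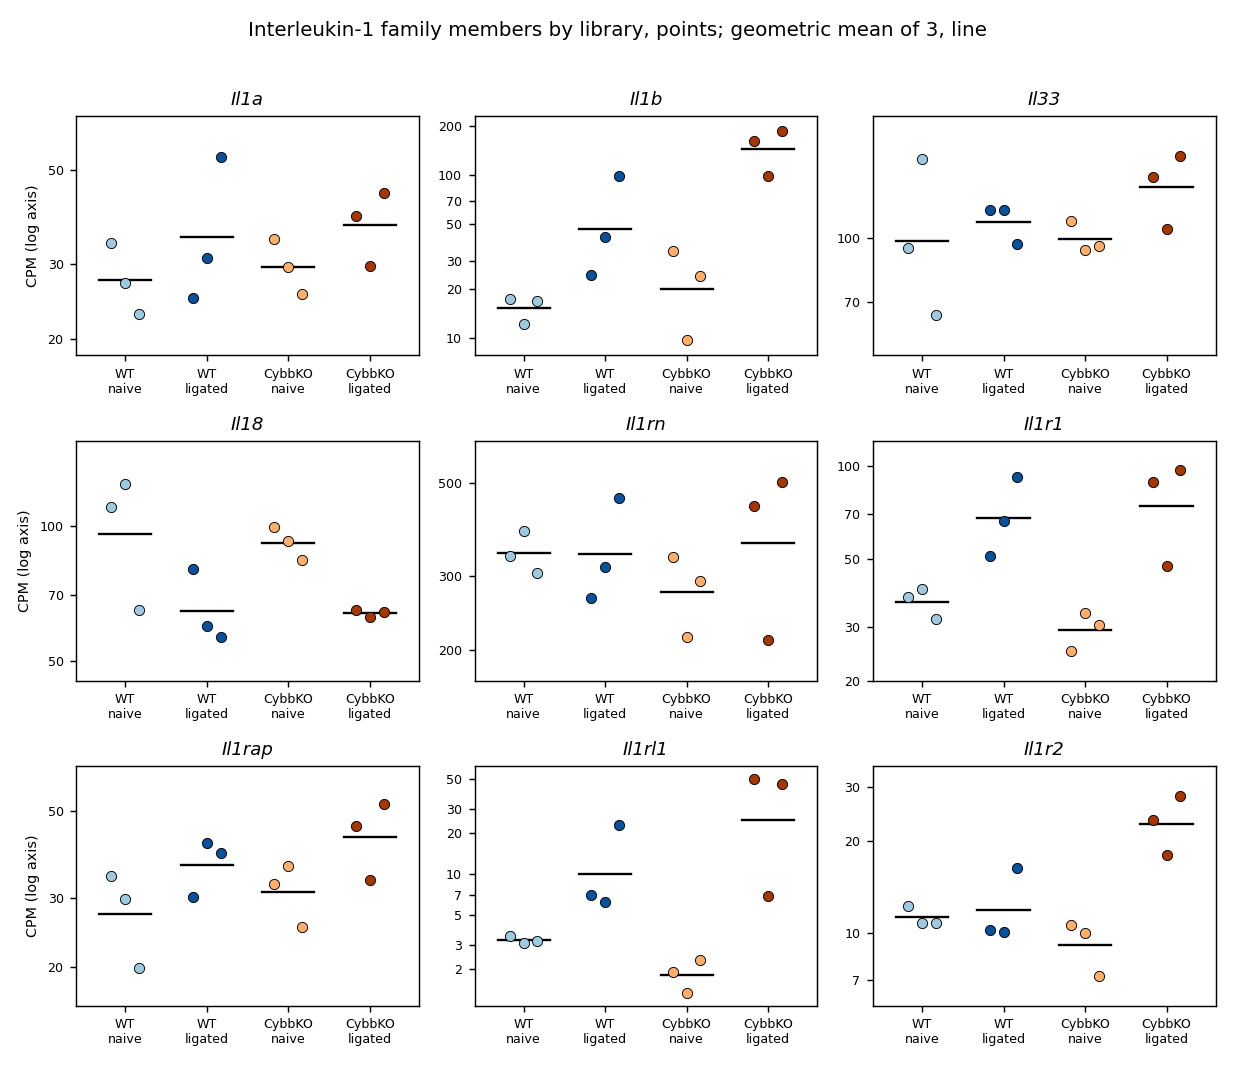
CPM of each of the 9 genes on a log axis, 1 panel a gene, with a point per library and a line at the geometric mean of the 3 libraries of a group. Il1b, Il1r1 and Il1rl1 separate ligated from naive libraries in both genotypes. Il1r2 and Il18 do so in CybbKO alone. There the 3 ligated libraries had 17.9 to 28.1 CPM of Il1r2, above the naive ones, and 62.6 to 65.0 CPM of Il18, below them.

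Il1a, the gene for the alarmin IL-1 alpha held in epithelial cells, did not change beyond the spread. Its levels were 33.7, 27.1 and 22.8 CPM in WT naive, 24.97, 31.1 and 53.9 in WT ligated, 34.4, 29.5 and 25.5 in CybbKO naive and 39.0, 29.8 and 44.2 in CybbKO ligated libraries. The groups overlapped throughout. Its log2 fold change with the ligature over both genotypes was 0.37 (95% interval -0.04 to 0.78, adjusted p = 0.178 by edgeR's quasi-likelihood test), an interval that does not reach a doubling. With single libraries left out it ran from 0.17 to 0.50, and it was called under none of the alternatives.

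Il33, the gene for the nuclear alarmin that ST2 binds, had 94.4, 155 and 64.8 CPM in WT naive and 116, 116 and 96.3 CPM in WT ligated libraries. In CybbKO it had 110, 93.4 and 95.5 CPM in naive and 140, 105 and 158 CPM in ligated libraries. Its lowest value was in WT naive replicate 3, the library with the salivary gland markers, and naive and ligated libraries overlapped in both genotypes. The log2 fold change over both genotypes was 0.25 (standard error 0.18, adjusted p = 0.349 by edgeR's quasi-likelihood test). With single libraries left out it ran from 0.12 (without WT naive replicate 3) to 0.45 (without WT naive replicate 2), and the latter passed the test (adjusted p = 0.0449). In CybbKO it was 0.43 (adjusted p = 0.307), and 0.61 (adjusted p = 0.0363) without WT naive replicate 3 and CybbKO ligated replicate 2.

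Il18, the other ligand that needs caspase-1, was the member that fell. Naive libraries had 110, 124 and 64.8 CPM in WT and 99.6, 92.7 and 83.95 CPM in CybbKO. Ligated libraries had 80.1, 59.9 and 56.5 CPM in WT and 65.0, 62.6 and 64.5 CPM in CybbKO. The CybbKO groups did not overlap, while WT naive replicate 3 sat among the WT ligated libraries. Over both genotypes Il18 fell by 0.57 on the log2 scale (standard error 0.15, adjusted p = 0.0165 by edgeR's quasi-likelihood test). The fall was 0.61 in WT and 0.52 in CybbKO, and neither passed alone (adjusted p = 0.131 and 0.124). Fitted on the 6 CybbKO libraries only, the CybbKO value was -0.51 and passed (adjusted p = 0.0400). Without WT naive replicate 3 the WT value was -0.84 and passed (adjusted p = 0.0187), as did the CybbKO value of -0.52 in the same fit (adjusted p = 0.0246). Without CybbKO ligated replicate 2 as well they were -0.81 (adjusted p = 0.0108) and -0.48 (adjusted p = 0.0413).

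Il1rn, the receptor antagonist, did not pass the test in any comparison with all 12 libraries. It had 334, 385 and 305 CPM in WT naive, 267, 315 and 460 in WT ligated, 333, 215 and 292 in CybbKO naive and 439, 212 and 503 in CybbKO ligated libraries. The lowest of the ligated libraries, CybbKO ligated replicate 2, lay below every naive library, and the other 2 of its group lay above every naive library. The log2 fold change with the ligature was 0.02 (95% interval -0.62 to 0.67) in WT and 0.46 (-0.19 to 1.11) in CybbKO. With single libraries of the CybbKO groups left out the CybbKO value ran from 0.22 to 0.75. The highest was without CybbKO ligated replicate 2 (adjusted p = 0.0463 by edgeR's quasi-likelihood test), and without WT naive replicate 3 as well it was 0.78 (adjusted p = 0.0385).

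Il1r1, the signalling IL-1 receptor chain, rose with the ligature. It had 37.5, 39.7 and 31.7 CPM in WT naive and 50.9, 66.5 and 92.5 CPM in WT ligated libraries, against 24.996, 33.2 and 30.4 CPM in CybbKO naive and 89.1, 47.3 and 96.9 CPM in CybbKO ligated libraries. All 6 ligated libraries lay above all 6 naive ones. The log2 fold change was 1.40 (standard error 0.27, adjusted p = 0.00702 by edgeR's quasi-likelihood test) in CybbKO and 0.95 (standard error 0.27, adjusted p = 0.0774) in WT. The WT value passed with DESeq2 (adjusted p = 0.0146). In edgeR it passed at 0.95 (adjusted p = 0.0229) without CybbKO ligated replicate 2, a library of the other genotype that enters the WT value through the shared spread, and at 0.89 (adjusted p = 0.0379) without WT naive replicate 3 and CybbKO ligated replicate 2. Its partner Il1rap, the accessory chain shared with ST2, had 34.1, 29.8 and 19.9 CPM in WT naive, 30.1, 41.3 and 38.9 in WT ligated, 32.6, 36.1 and 25.2 in CybbKO naive and 45.5, 33.3 and 51.9 in CybbKO ligated libraries. Its groups overlapped, and its log2 fold change over both genotypes was 0.44 (95% interval 0.08 to 0.79, adjusted p = 0.0689). It passed under 5 of 20 alternatives, with DESeq2 (adjusted p = 0.0453), with library totals as the scaling (0.54, adjusted p = 0.0383), without WT naive replicate 1 (0.52, adjusted p = 0.0438), without CybbKO ligated replicate 2 (0.52, adjusted p = 0.0279) and without WT naive replicate 3 and CybbKO ligated replicate 2 (0.45, adjusted p = 0.0249). In that last fit its CybbKO value, 0.48 with all libraries, was 0.67 and passed too (adjusted p = 0.0249).

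Il1rl1, which encodes the IL-33 receptor ST2, was the lowest member per length in naive tissue and had the largest change among the 9. WT libraries had 3.47, 3.07 and 3.21 CPM in naive and 6.99, 6.15 and 23.02 CPM in ligated tissue. CybbKO libraries had 1.90, 1.33 and 2.32 CPM in naive and 49.7, 6.85 and 46.05 CPM in ligated tissue. Every ligated library exceeded every naive one, but within each ligated group the libraries were far apart, and CybbKO ligated replicate 2 stood at the level of the 2 lower WT ligated libraries. The log2 fold change was 4.21 in CybbKO (standard error 0.72, adjusted p = 0.00430 by edgeR's quasi-likelihood test) and 1.89 in WT (standard error 0.66, adjusted p = 0.135). Without WT naive replicate 3 and CybbKO ligated replicate 2 the values were 4.73 (adjusted p = 0.000337) and 1.92 (adjusted p = 0.0504). Without CybbKO ligated replicate 2 alone the WT value was again 1.89 and passed (adjusted p = 0.0335). Without WT ligated replicate 3 it was 1.01 (adjusted p = 0.483).

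Il1r2, the decoy receptor, rose in CybbKO, where the ligature fold was 1.32 on the log2 scale (standard error 0.24, adjusted p = 0.00510 by edgeR's quasi-likelihood test). It had 10.6, 9.96 and 7.20 CPM in CybbKO naive and 23.3, 17.9 and 28.1 CPM in CybbKO ligated libraries, which did not overlap. In WT it had 12.2, 10.7 and 10.8 CPM in naive and 10.2, 10.05 and 16.3 CPM in ligated libraries, with a log2 fold change of 0.11 (95% interval -0.39 to 0.62, adjusted p = 0.828). The WT groups overlapped. With TMM scaling 2 of the 3 ligated libraries lay below all WT naive ones, and by library totals none did.

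Read as a family, 0 of 9 members were called in WT, at an adjusted p under 0.05, where 3.2% of all tested genes were called (2.31% as higher). DESeq2 called 2, Il1b and Il1r1, where it called 9.14% of all genes, and 4 had an unadjusted p under 0.05 in edgeR, as did 19.9% of all genes. In CybbKO 4 of 9 were called, all higher (Il1b, Il1r1, Il1rl1 and Il1r2), where 13% of all genes were called and 9.95% as higher. Over both genotypes 5 of 9 were called, 4 as higher and Il18 as lower, against 24.4% of all genes, 14.7% as higher and 9.66% as lower. Libraries did not overlap for 3 members in WT (24.9% of all genes), for 5 in CybbKO (31.4%) and for 3 over both genotypes (14.6%). By library totals Il33 in CybbKO did not overlap either. The median log2 fold change of the 9 was 0.40 in WT, 0.48 in CybbKO and 0.44 over both, while that of all tested genes was -0.03 each time. Without WT naive replicate 3 and CybbKO ligated replicate 2, a pair chosen after seeing the data, the calls were 2 of 9 in WT (Il18 and Il1r1). In CybbKO they were 8 of 9, all but Il1a. The same step raised the calls over all genes from 481 to 1516 (10%) in WT and from 1954 to 3711 (24.5%) in CybbKO.

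**Figure D2:**
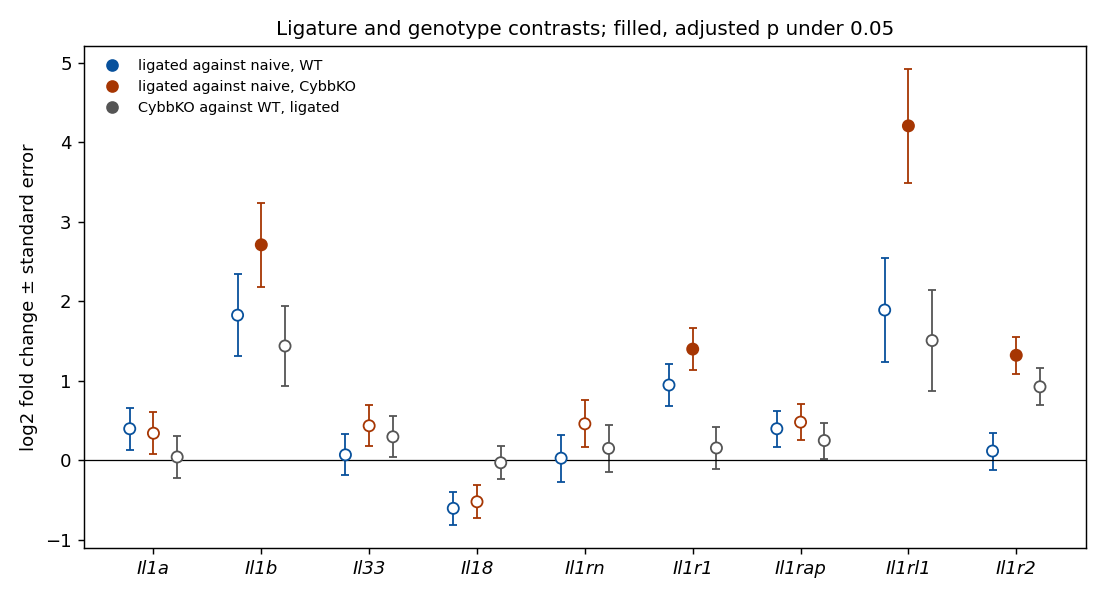
Log2 fold change with its standard error for each gene in 3 comparisons, ligated against naive in WT (blue), the same in CybbKO (brown) and CybbKO against WT in ligated tissue (grey), filled where the adjusted p was under 0.05. The 4 filled points are Il1b, Il1r1, Il1rl1 and Il1r2 in CybbKO, from 1.32 to 4.21, and no grey point is filled.

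Between the genotypes in naive tissue 0 of 9 members were called by edgeR, where 0.00665% of all genes were (1 gene, Cybb), and 0 had an unadjusted p under 0.05 (2.03% of all genes). DESeq2 also called 0. Il1r2 and Il1rl1 had libraries that did not overlap, both lower in CybbKO (5.11% of all genes did not overlap), with log2 differences of -0.28 (95% interval -0.79 to 0.23) and -0.81 (-2.29 to 0.66). For Il1r2 the gap was narrow, with 10.59 CPM in the highest CybbKO and 10.72 CPM in the lowest WT library. The other 7 overlapped.

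In ligated tissue 0 of 9 were called by edgeR or DESeq2 (0.00665% of all genes by edgeR, again Cybb alone), and 3 had an unadjusted p under 0.05, against 3.34% of all genes. Il1b was 1.44 higher on the log2 scale in CybbKO (95% interval 0.34 to 2.53, unadjusted p = 0.0145 and adjusted p above 0.99 by edgeR's quasi-likelihood test). Il1r2 was 0.92 higher (0.41 to 1.43, unadjusted p = 0.00195), and Il1rl1 1.51 higher (0.13 to 2.88, unadjusted p = 0.0346). Without WT ligated replicate 3 the differences were 2.17 for Il1b and 2.38 for Il1rl1, and with any single library of these groups left out they ran from 1.07 and 1.13 up to those values. The libraries did not overlap for Il1r2 and, with TMM scaling though not with library totals or DESeq2's size factors, for Il1b (7.84% of all genes did not overlap), while CybbKO ligated replicate 2 put Il1rl1 inside the WT range. For Il1a, Il33, Il18, Il1rn, Il1r1 and Il1rap the differences ran from -0.03 to 0.29. For Il18 the interval was -0.49 to 0.42, so a doubling lies outside it. Over both tissues together 0 of 9 were called by edgeR or DESeq2 (0.00665% of all genes by edgeR), and Il1b alone had an unadjusted p under 0.05 (2.46% of all genes).

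Whether the ligature change itself differed between genotypes was tested as the difference of the 2 ligature fold changes. By edgeR and DESeq2 0 of 9 members were called (0% of all genes), and 2 had an unadjusted p under 0.05 (2.27% of all genes). These were Il1r2, with 1.21 more on the log2 scale in CybbKO (95% interval 0.49 to 1.93, unadjusted p = 0.00340 by edgeR's quasi-likelihood test), and Il1rl1, with 2.32 more (0.30 to 4.33, unadjusted p = 0.0276). For Il1b the difference was 0.89 (-0.65 to 2.42, unadjusted p = 0.233), an interval that holds both 0 and a doubling. With single libraries left out the difference ran from 0.51 to 1.61 for Il1b and from 1.95 to 3.19 for Il1rl1, both highest without WT ligated replicate 3. The calls of Il1b, Il1r1, Il1rl1 and Il1r2 in CybbKO and not in WT are therefore not shown to differ between genotypes. Il1r2 was the only member whose genotype difference changed direction with full separation, lower in all CybbKO naive and higher in all CybbKO ligated libraries, as did 0.186% of all tested genes. In naive tissue that separation was narrow, 10.59 against 10.72 CPM.

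The balance of inhibitors and targets was followed as a ratio of counts within each library, which cancels the depth of the library but not gene length. The ratio of Il1rn to Il1b, antagonist to agonist, was lower in ligated tissue. Its values were 19.1, 31.5 and 18.0 in WT naive and 10.96, 7.49 and 4.65 in WT ligated libraries. In CybbKO they were 9.64, 21.9 and 12.2 in naive and 2.71, 2.13 and 2.71 in ligated libraries. The 3 CybbKO ligated libraries lay below all others and, within each genotype, ligated libraries below naive ones with no overlap. Over both genotypes the log2 ratio differed by -2.03, with a two-sided exact permutation p of 0.005 when libraries were permuted within genotype, the smallest that 400 arrangements allow. Between ligated CybbKO and ligated WT the log2 ratio differed by -1.54, with an exact permutation p of 0.1, the smallest that 3 against 3 allows. Over the 12 ratio comparisons computed, the Benjamini-Hochberg value of the first was 0.06 and that of the second 0.171. The ratio rests on the Il1b values given above, and Il1rn itself did not pass a test.

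**Figure D3:**
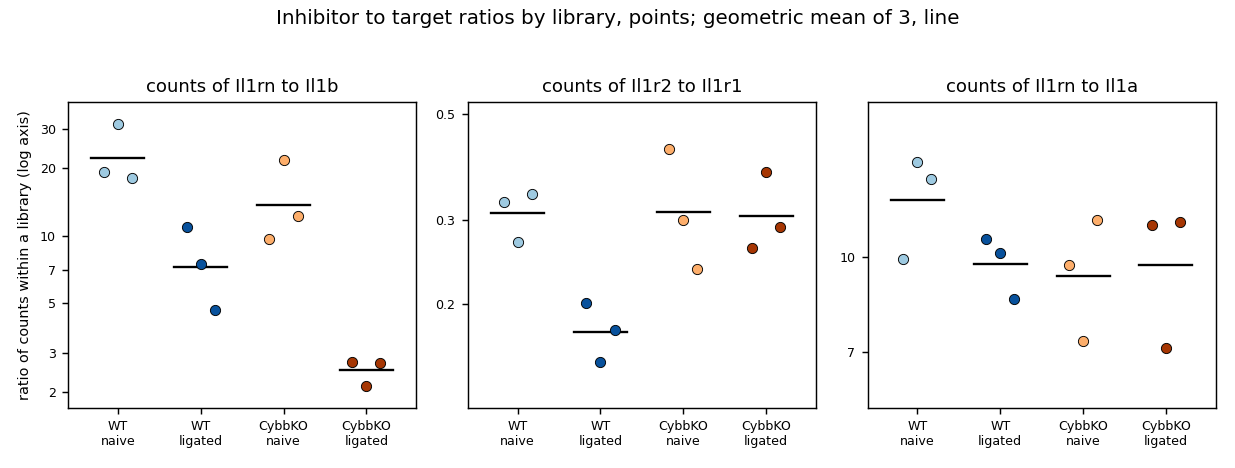
Ratio of counts within each library, on log axes, for Il1rn to Il1b, Il1r2 to Il1r1 and Il1rn to Il1a, with a line at the geometric mean of each group of 3. The Il1rn to Il1b ratio runs from 18.0 to 31.5 in WT naive down to 2.13 to 2.71 in CybbKO ligated libraries.

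The ratio of Il1r2 to Il1r1, decoy to signalling receptor, had a geometric mean of 0.311 in WT naive and 0.175 in WT ligated libraries, which did not overlap (0.270 to 0.340 against 0.151 to 0.201). In CybbKO it was 0.312 in naive and 0.306 in ligated libraries (0.237 to 0.424 against 0.262 to 0.378). With the ligature the log2 ratio moved by -0.03 in CybbKO and by -0.83 in WT, and the difference between the 2 was not tested. The exact permutation p was 0.1 in WT, the smallest possible, 0.9 in CybbKO and 0.07 over both genotypes. Without CybbKO ligated replicate 2 the pooled value was -0.50 (exact permutation p = 0.035) and without CybbKO naive replicate 3 it was -0.53 (exact permutation p = 0.025). Ligated CybbKO was 0.81 higher than ligated WT on the log2 scale (exact permutation p = 0.1, the smallest possible). For Il1rn to Il1a the geometric means were 12.4, 9.74, 9.32 and 9.69 in WT naive, WT ligated, CybbKO naive and CybbKO ligated libraries, and the pooled ligature difference was -0.14 on the log2 scale (exact permutation p = 0.415).

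To set the members beside each other, levels were divided by exon length and are given as RPKM, CPM per kilobase of exon. In WT naive tissue the order was Il18 (96.7 ± 30.02, SD, n = 3), Il1rn (61.7 ± 7.28), Il33 (36.3 ± 15.9), Il1a (14.1 ± 2.77), Il1b (8.15 ± 1.52), Il1r2 (5.90 ± 0.45), Il1r1 (5.71 ± 0.65), Il1rap (2.46 ± 0.64) and Il1rl1 (0.47 ± 0.03). The neighbours Il18 and Il1rn, Il1b and Il1r2, and Il1r2 and Il1r1 overlapped over their 3 libraries, and the other neighbours did not. In CybbKO naive tissue the order was the same, with Il18 at 89.3 ± 7.62 and Il1rl1 at 0.27 ± 0.07. In WT ligated tissue Il1b ranked between Il33 and Il1a (28.9 ± 20.4), overlapping both. CybbKO ligated tissue had Il1b first (78.1 ± 23.3), overlapping Il1rn (69.5 ± 27.6), which overlapped Il18 (62.1 ± 1.22). There Il1rl1 (4.96 ± 3.45) had passed Il1rap (3.84 ± 0.83), though both overlapped.

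The other genes of the pathway, 67 from a list of ligands, receptors, maturation factors, signalling parts and known IL-1 targets, were all in the table and 62 were tested. In WT 1 was called, Mmp3, a stromal metalloproteinase, at a log2 fold change of 2.67 (adjusted p = 0.0422 by edgeR's quasi-likelihood test), where 3.2% of all genes were called. That call was made in 3 of 12 fits with 1 library left out, and DESeq2 called 4 pathway genes higher and 2 lower in WT. In CybbKO 20 of 62 were called higher and 2 lower, where 9.95% of all genes were called higher and 3.04% lower, with a median log2 fold change of 0.49 against -0.03 over all genes. Over both genotypes the counts were 23 and 3, against 14.7% and 9.66% of all genes. Without WT naive replicate 3 and CybbKO ligated replicate 2 the CybbKO counts were 27 and 3, and 16.4% of all genes were called higher. Leaving out 1 library cut the higher calls to 9 (CybbKO ligated replicate 1), 8 (CybbKO ligated replicate 3), 13, 9 and 10 (CybbKO naive replicates 1, 2 and 3). The higher calls over all genes dropped in the same fits, from 9.95% to 4.65%, 4.87%, 6.26%, 5.28% and 6.2%. The lower calls became 1, 0, 0, 1 and 2. Of the 22 genes, 8 were called in CybbKO whichever single library was left out (Il18rap, Nlrp3, Mefv, Gsdmd, Mmp3, Mmp13, Saa3 and Nos2), and the other 14 lost the call in 2 to 7 of the 12 fits. Between genotypes in ligated tissue 0 of 62 were called by edgeR, and 14 had an unadjusted p under 0.05 (3.34% of all genes). The largest log2 differences there were 3.12 for the acute-phase gene Saa3, 2.04 for the cytokine Il6 and 1.56 for Tnfsf11, or RANKL, the factor that drives osteoclast formation. In naive tissue no pathway gene was called (0 of 62), 1 passed an unadjusted p of 0.05 (2.03% of all genes), and the largest log2 differences were -1.38 for the collagenase Mmp13, -1.32 for the growth factor Csf2 and -1.26 for the chemokine Ccl20. Csf2 and Ccl20 had few reads there, with means of 6.67 and 9 counts in CybbKO and 15.3 and 19.3 in WT libraries. For the difference of the ligature changes the count was 0 of 62, with 9 at an unadjusted p under 0.05 (2.27% of all genes), and the values were 3.57 for Saa3, 2.85 for Mmp13 and 1.94 for Il6. DESeq2 called 0 of 62 in each of these 3 comparisons.

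Known IL-1 targets made up 10 of the 20 higher calls in CybbKO, of 17 tested, where 9.95% of all genes were called higher. The largest were Saa3 (7.12 on the log2 scale), Mmp13 (6.43), Il6 (4.59), Tnfsf11 (4.21) and Mmp3 (3.72). Il6 had a mean of 3.67 counts in CybbKO naive libraries, so its fold change starts from very few reads. Il6 and Tnfsf11 were each called in 7 of 12 fits with 1 library left out. Ptgs2, the inducible cyclooxygenase, rose by 2.94 and the neutrophil chemokine Cxcl2 by 2.32. The monocyte chemokine Ccl2 (2.25), inducible nitric oxide synthase Nos2 (2.20) and the adhesion molecule Icam1 (1.28) made up the rest. Over both genotypes 12 of 17 were called higher (14.7% of all genes), with Ccl20 (1.23) and Cxcl5 (1.55), both chemokines, added to these.

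Of the maturation genes, 5 of 11 were called higher and 1 lower in CybbKO, where 9.95% of all genes were called higher and 3.04% lower. Those that rose were Mefv, which encodes pyrin (3.12), the inflammasome sensor Nlrp3 (2.37), the pore former Gsdmd (1.20), Casp4, the non-canonical inflammasome caspase (0.97), and Capn2 (0.58), a calpain, a protease class known to cut the IL-1 alpha precursor. Casp1, the protease that cuts the precursors of IL-1 beta and IL-18, fell by 0.69 in CybbKO (adjusted p = 0.0280 by edgeR's quasi-likelihood test) and by 0.62 over both genotypes, where Il18 was called lower too. The CybbKO call of Casp1 was lost without CybbKO ligated replicate 1 or 3 or CybbKO naive replicate 1 or 2 (highest adjusted p = 0.111). Aim2, a DNA sensor, was called over both genotypes (0.76).

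Among other receptors 3 of 4 were called higher in CybbKO (9.95% of all genes), the IL-18 receptor chains Il18rap (2.13) and Il18r1 (1.09) and the IL-36 receptor Il1rl2 (0.46). Of 6 other ligands and binding proteins 1 was called, Il1f10, the gene for IL-38, which fell by 1.02 and was not called without CybbKO ligated replicate 3 or CybbKO naive replicate 1, nor in the 6 CybbKO libraries fitted alone. The adaptors and kinases had 1 call of 14, Irak3, an inhibitory kinase (0.90), and the NF-kappa-B group 1 of 10, the feedback inhibitor Tnfaip3 (0.92). Both counts lie near the 9.95% of all genes called higher. Irak3 was called in 8 and Tnfaip3 in 9 of the 12 fits with 1 library left out. Over both genotypes Irak1, a kinase below the receptor, fell by 0.20, and Nfkbiz, an inducible NF-kappa-B cofactor, was called at 0.61.

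**Figure D4:**
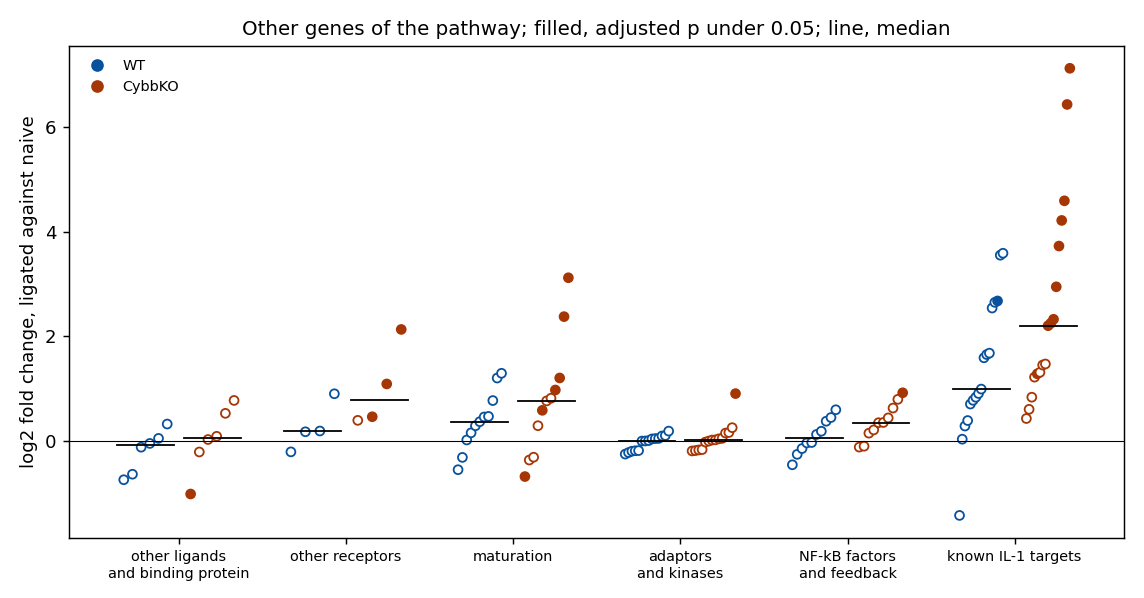
Log2 fold change from naive to ligated tissue for the other pathway genes in 6 groups, WT in blue and CybbKO in brown, filled where the adjusted p was under 0.05, with a line at each median. The known IL-1 targets have the highest medians, 0.99 in WT and 2.20 in CybbKO, and the adaptors and kinases lie near 0.

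These are bulk tissue counts, in which more cells of a type and more RNA per cell cannot be told apart, and markers of several cell types moved with the members. The neutrophil markers summed to 498 to 949 CPM in WT naive, 1623 to 4046 in WT ligated, 921 to 1044 in CybbKO naive and 3000 to 11817 in CybbKO ligated libraries, with 1 of 11 tested called higher in WT and 9 of 11 in CybbKO. For this and the lists below, 2.31% of all genes were called higher in WT and 9.95% in CybbKO, with 3.04% lower in CybbKO. Monocyte and macrophage markers had 2 of 11 called higher in WT and 11 of 11 in CybbKO, with sums of 124 to 171 CPM over naive and 204 to 489 over ligated libraries. For fibroblast markers 3 of 7 were called higher in WT and 6 of 7 in CybbKO, with sums of 1405 to 2943 CPM over naive and 3907 to 10460 over ligated libraries. Mast cell markers, of interest as ST2 is a mast cell receptor, had sums of 15.8 to 31.3 CPM in both WT groups and CybbKO naive, and 35.4 to 46.8 in CybbKO ligated libraries, with 1 of 8 called higher in CybbKO. The call was Hdc, which had 14.8 to 25.4 CPM in CybbKO ligated and 1.08 to 10.8 CPM in the other libraries, and which is also among the genes closest to Il1b. The other 7 summed to 16.6 to 26.7 CPM in CybbKO ligated libraries, within the 14.1 to 29.6 CPM of the other groups, a split made after the values were seen. CybbKO ligated replicate 2, the lowest of its group for each of the 9 genes, was also the lowest in all 4 of these sums. Oral epithelium markers had 0 of 12 called in either genotype, and their sum in that library was 131300 CPM, against 80473 and 87414 in the other 2 of its group. Of the endothelial markers 3 of 6 were called higher in WT and 5 of 6 in CybbKO, of the T, NK and innate lymphoid markers 1 and 2 of 9, and of the skeletal muscle markers 0 and 1 of 6. B and plasma cell markers had 0 of 4 called in WT and 2 of 4 called lower in CybbKO, and salivary gland markers 0 of 5 in either. Between genotypes in ligated tissue 10 of 11 neutrophil and 11 of 11 monocyte and macrophage markers were higher in CybbKO. Of each list 6 had an unadjusted p under 0.05 in edgeR's quasi-likelihood test (3.34% of all genes), and 0 were called. For fibroblast and mast cell markers 0 of 7 and 1 of 8 had such a p. The part of these cell types in the values of the 9 genes was not tested.

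**Figure D5:**
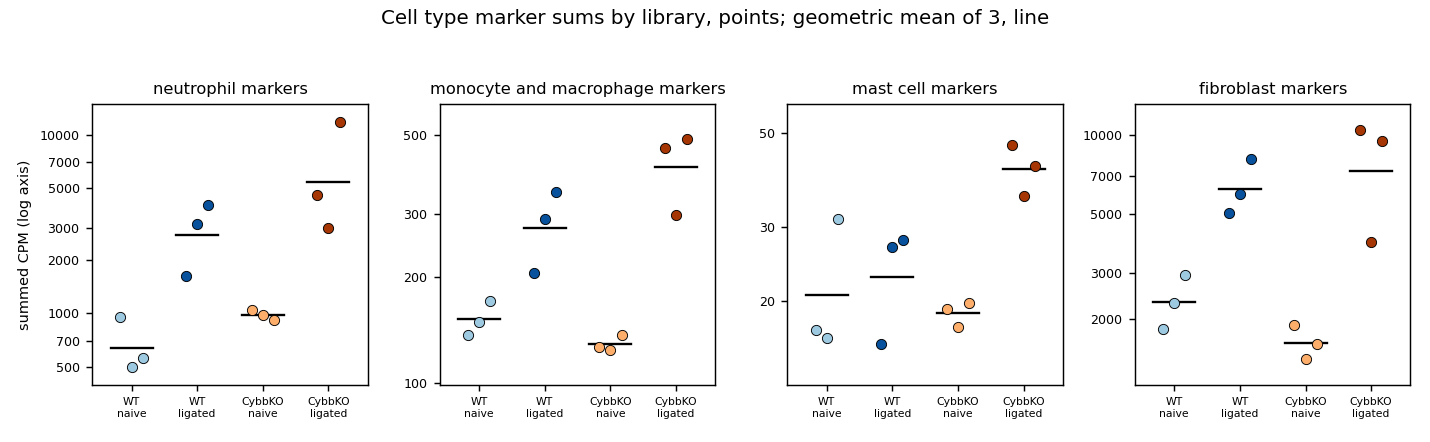
Summed CPM of the markers of 4 cell types, on log axes, with a point per library and a line at the geometric mean of each group of 3. CybbKO ligated replicate 2, the middle point of its group, is the lowest of the 3 in every panel, with 3000 CPM for neutrophils and 3907 CPM for fibroblasts.

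Genes whose log2 CPM followed a member most closely over the 12 libraries were found by Pearson's r among tested genes, given here as a description over libraries that share the ligature, so that within-group r, after removing group means, is set beside it. For Il1b they were Apobr (r = 0.991, within groups 0.960), Hdc, the histamine-forming enzyme (0.990 and 0.972), and Slc11a1, a phagocyte metal transporter (0.988 and 0.956). For Il1rl1 they were Mmp13 (0.985 and 0.958), Gpr183 (0.982 and 0.965) and Pros1 (0.980 and 0.944). Il1r1 was followed by Atp6v0d2, an osteoclast and macrophage proton pump subunit (0.993 and 0.982), by Tal1 (0.993 and 0.983) and by Wipf1 (0.985 and 0.958). For Il1r2 the genes were Clec5a (0.925 and 0.853), Il10rb (0.924 and 0.922) and Mefv (0.922 and 0.811), so that the pyrin gene of the pathway list came up here as well.

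For the other 5 members r alone is given. Il1a went with B4galt1 (0.935), Errfi1 (0.904) and the chemokine Cxcl5 (0.903), Il1rn with Ptk2 (0.941), Lrrc55 (0.935) and Stac2 (0.926), and Il33 with Srsf5 (0.896), Pcdhgb5 (0.894) and Slc16a6 (0.888). Il18 went with Abhd17c (0.951), Srpk1 (0.945) and Mcmbp (0.944), and Il1rap with Rlf (0.972), Mcc (0.952) and Fam126a (0.949). Among the members themselves Il1r1 and Il1rl1 were closest over the 12 libraries (r = 0.938, within groups 0.836), followed by Il1b and Il1rl1 (0.886 and 0.683). Within groups the closest were Il1rn and Il1rl1 (0.912, over the 12 libraries 0.683) and Il1a and Il1r2 (0.896 and 0.691). Il18 ran against Il1b over the 12 libraries (-0.706), and less so within groups (-0.335).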

How the data were processed

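Gingival mRNA of 12 libraries was measured by RNA-seq. Raw read counts per gene, not normalized, were deposited by the authors, from stranded libraries aligned to GRCm38 with STAR. Their methods name featureCounts with strand for the counting, while the submitters' processing notes name HTSeq 0.10.0, so the counter is not settled here. Symbols, positions and exon lengths came from GENCODE M21 (21939 of 21965 genes matched).

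Groups came from the sample labels. Genes passing filterByExpr were fitted jointly over the 12 libraries with edgeR 4.0.16 (quasi-likelihood F test, TMM) in R 4.3.3, with Benjamini-Hochberg adjustment over all 15046 genes, and called at an adjusted p under 0.05. Intervals are 95% t intervals of the fit. Count ratios, with 0.5 added to each count, were compared by two-sided exact permutation tests. The series gives 3 mice per group without tying libraries to animals, so p-values measure the spread between these libraries. Alternatives were DESeq2 1.42.0, other scalings and filters, a robust fit, the replicate block, the 6 libraries compared alone and each library left out. Both tools were tested on simulated data, where DESeq2 made a larger share of false calls than edgeR in each of 3 simulations. Those counts were drawn with edgeR's own estimates of spread and library size, so they cannot settle which tool is right for these libraries.

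The members, gene lists and tests were chosen with earlier results of these data known. Named genes were the 9 members, Cybb, every called gene of the pathway list or, where none was called, the 3 with the largest log2 difference, and the 3 genes most correlated with each member among those with a mean of at least 1 CPM. Marker lists are given by counts and sums. Promoter windows came from RefSeq. The edgeR fit was fixed as the main test, so calls made by DESeq2 alone were not counted as changes.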

Additional observations from a re-analysis of the deposited data

Results flagged for a closer look

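The decoy receptor Il1r2 drew a closer look because its genotype difference pointed in opposite directions in the 2 tissues, with every library of CybbKO below every WT library in naive tissue and above every WT library in ligated tissue. The naive gap was narrow, with 10.59 CPM in the highest CybbKO and 10.72 CPM in the lowest WT library. With DESeq2's size factors these were 10.730 and 10.737 CPM. By library totals the ligated gap was narrow too, 17.68 against 17.52 CPM. Counting error of Il1r2 in the naive groups was 5.4% to 5.6%, larger than the naive gap. On the log2 scale the genotype difference was -0.28 in naive and 0.92 in ligated tissue. The difference between these, 1.21 (standard error 0.33), had an unadjusted p of 0.00340 and an adjusted p above 0.99 in edgeR's quasi-likelihood test. Over the 20 alternatives it stayed between 1.04 and 1.47, with adjusted p from 0.402 up to 1. Of all tested genes 0.186% separated in this way.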

How the results depend on the processing

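Of 645 values of single members under the alternatives, with single libraries left out from the groups compared, 612 kept their direction and side of the threshold, 17 passed it where they had not before, 16 changed sign and 0 lost a call. Leaving out a library outside the comparison gave 162 further values, of which 0 lost a call and 3 gained one, Il1r1 and Il1rl1 in WT without CybbKO ligated replicate 2 and Il18 in CybbKO without WT naive replicate 3. The calls of Il1b, Il1r1, Il1rl1 and Il1r2 in CybbKO, and of these and Il18 over both genotypes, were made under every alternative. In WT the count of 0 became 2 with DESeq2 and ranged from 0 to 2 with single libraries left out (2 with CybbKO ligated replicate 2 left out, 1 with WT naive replicate 3 left out). Leaving out WT naive replicate 3 and CybbKO ligated replicate 2 together, chosen after seeing the data, gave 2 in WT and 8 in CybbKO, where the main count was 4. Sign changes were all in values that did not pass the test. In WT ligated against naive, Il33 became -0.16 without the 2 libraries and -0.19 to 0.46 with single ones left out, Il1rn became -0.019 without the 2 libraries and -0.23 to 0.22 with single ones left out, and Il1r2 ranged from -0.15 to 0.26. Between genotypes in ligated tissue the ranges with single libraries left out were -0.19 to 0.43 for Il1a, -0.13 to 0.12 for Il18, -0.094 to 0.44 for Il1rn and -0.042 to 0.41 for Il1r1. The log2 ratio of Il1rn to Il1a ranged there from -0.12 to 0.22. The pooled ligature difference of the Il1r2 to Il1r1 log2 ratio ranged from -0.53 to -0.32, and the exact permutation p passed 0.05 without CybbKO ligated replicate 2 (0.035) or CybbKO naive replicate 3 (0.025). The cause of these changes was not tested.

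Replicate numbers of the labels did not pair the libraries, since 2 of 18 pairs of same-numbered libraries had a correlation of deviations over 0.1 (-0.23 to 0.28). With the number as a replicate block the members called stayed 0 in WT, 4 in CybbKO and 5 over both genotypes, and Il1rn in WT became -0.020. Over all genes the counts called moved from 481 to 271 in WT and from 1954 to 1573 in CybbKO. DESeq2 called 1375 genes in WT, and leaving out WT naive replicate 2 left 27. The lowest count of a member in a library was 48, for Il1rl1, and in 34 of 36 pairs of member and group the coefficient of variation between libraries was above that of counting error alone, which was at most 12.6%.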
